A study of Mus musculus with 8 samples.

Results

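Short small nucleolar RNAs (snoRNAs), of the size of the box C/D class, were described in immortalized mouse skin fibroblasts. They were taken from a table of 2403 small RNA features as all features typed as snoRNA whose deposited interval was at most 110 bases long and whose value reached 10 in at least 2 of the 8 libraries. Features that start between 110750000 and 111050000 on chromosome 12, in the coordinates of the deposited table, were left out. The rule kept 174 of the 2403 features, out of 511 listed snoRNAs. Members were thus chosen by the length and the level of a feature and by no difference between groups, and 173 of the 174 held at least 10 in all 8 libraries. The exception, the unmatched feature ENSMUST00000180087, had a mean of 8.63. Overlapping intervals join the 174 features into 144 loci, of which 30 hold more than 1 feature (60 features in all), so features of a locus count partly the same molecules.

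Box C/D snoRNAs are short nucleolar RNAs that carry a C box near the 5′ end and a D box near the 3′ end, which the core proteins Nop56, Nop58, fibrillarin and Snu13 bind. A stretch of the RNA next to the D box pairs with ribosomal or spliceosomal RNA and directs 2′-O-methylation of the paired base. In mammals most are not transcribed on their own: they are cut from introns of host genes, many of which encode ribosomal proteins or are spliced non-coding transcripts such as Gas5 and Snhg1. The other large class, box H/ACA, is mostly longer, guides pseudouridylation and ends in an ACA box.

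The cells came from wild-type C57BL/6 mice (WT) or from mice of the mir210lox/lox genotype, whose libraries are titled KO. The labels name no recombinase for the floxed allele. Cells of both genotypes were immortalized and were held at 21% O2 (normoxia) or 1% O2 (hypoxia) for 24 h, which gives 4 groups of 2 libraries, numbered 1 and 2. No label states whether both libraries of a group are separate cultures. The p-values therefore describe the spread among these 8 libraries, which may be technical.

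miR-210-3p, from the targeted locus, was at 4786 and 8676 (normoxia) and 36738 and 39011 (hypoxia) in WT, and at 23 and 14 (normoxia) and 10 and 32 (hypoxia) in KO (number 1, then number 2, here and below). Values are the authors' normalized read counts, and a library's values summed to 8618630 to 12167438. MicroRNAs taken as typical of fibroblasts summed to 3270121 to 5181279 per library, against 832 to 3044 for the haematopoietic list and 95 to 281 for the epithelial list. A level of 3 counts, the limit that a count of 0 allows, is 2.47e-05% to 3.48e-05% of a library.

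The sequences of 9 features that the results turn on are shown first, as deposited, 5′ to 3′. Positions are those of the matched gene in the GENCODE M21 annotation of GRCm38, and the deposited sequence can be shorter than the gene. The first 6 show the C box (TGATGA or 1 mismatch from it) and the D box (CTGA) in capitals. They are the most abundant features of Snhg1 (Gm24452 at chr19:8724531-8724602 and Gm22744 at chr19:8725092-8725156, plus strand), those of Gas5 (Snord80 at chr1:161037601-161037681 and Snord47 at chr1:161038082-161038158, plus strand), the feature with the smallest spread (Snord104, chr11:106500993-106501062, plus strand) and the one with the largest spread among those with a mean of at least 100 (Gm23969 in Rpl7a, chr2:26911261-26911334, plus strand).
Gm24452: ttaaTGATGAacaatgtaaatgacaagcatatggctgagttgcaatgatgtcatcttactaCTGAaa
Gm22744: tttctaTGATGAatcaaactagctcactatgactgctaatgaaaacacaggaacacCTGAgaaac
Snord80: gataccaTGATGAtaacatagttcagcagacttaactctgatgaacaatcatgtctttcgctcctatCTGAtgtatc
Snord47: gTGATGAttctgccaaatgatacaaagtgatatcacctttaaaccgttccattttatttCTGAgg
Snord104: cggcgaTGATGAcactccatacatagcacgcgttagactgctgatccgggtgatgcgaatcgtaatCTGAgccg
Gm23969: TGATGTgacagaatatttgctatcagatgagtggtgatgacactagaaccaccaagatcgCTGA
In the other 3 the capitals mark a shorter feature that the table lists separately within the longer one. They are Snord72 in Rpl37 (chr15:5118404-5118484, plus strand), Snord83b in Rpl3 (chr15:80078498-80078591, minus strand) and Snord42b in Rpl23a (chr11:78183056-78183124, minus strand).
Snord72: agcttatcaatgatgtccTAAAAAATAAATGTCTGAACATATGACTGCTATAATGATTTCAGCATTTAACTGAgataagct
Snord83b: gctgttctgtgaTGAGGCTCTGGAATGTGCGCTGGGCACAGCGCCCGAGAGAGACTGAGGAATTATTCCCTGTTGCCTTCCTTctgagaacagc
Snord42b: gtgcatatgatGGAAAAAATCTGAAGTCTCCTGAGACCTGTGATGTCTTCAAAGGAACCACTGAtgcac
In all 3 the shorter feature leaves out the 5′ end of the longer one, and in Snord72 and Snord42b it ends with the D box.

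The C/D label held for most of the features by sequence, which the rule did not use. The D box motif CTGA stood in the last 20 bases of 154 of 174 (88.5%), against 22 of 189 tested snoRNAs over 110 bases (11.6%). The C box motif TGATGA stood in the first 20 bases of 72 (41.4%), against 9 (4.76%). Both stood in 68 (39.1%), or in 114 (65.5%) with 1 mismatch allowed in the C box, against 8 and 9 of the longer snoRNAs. The shorter features of overlapping pairs often begin after the C box: with 1 feature per locus the count was 111 of 144 (77.1%) with 1 mismatch. ACA, the H/ACA signature, stood in the last 8 bases of 24 of the short features (13.8%) and of 160 of the longer ones (84.7%). Motifs were searched on the deposited strand only. The median length was 71.5 bases and the median GC content 43.8%, against 132 bases and 48.5%.

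By sequence, 168 of the 174 features matched a GENCODE gene. Of these, 93 were named Snord, 56 carried a Gm name, 8 were Snora genes of the H/ACA class and 5 were Scarna genes, whose RNAs act in Cajal bodies on spliceosomal RNA. The other 6 matches had other names, among them Rnu73b, Mir5117 and Rnu11, and 6 features stayed unmatched. Rnu11 is a small nuclear RNA by name (FR197067, group means from 1265 to 1664). The label is thus met by most members and not by all: short pieces of H/ACA RNAs, such as the features of Snora30 and Snora5c, came in by their length. Gm24493, matched by a sequence of 143 bases although its deposited interval spans 40, holds neither box near its ends.

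Mean levels ran from 8.63 to 27534, with a median of 1769. The mean over the 8 libraries was at least 100 in 156 features, at least 1000 in 112 and at least 10000 in 22. The 10 most abundant of the 144 loci held 32.3% of the summed level and 20 loci held 50.2%, counting 1 feature per locus. Gm24452 was at 25887 and 28121 (normoxia) and 28312 and 34009 (hypoxia) in WT, and at 24749 and 22488 (normoxia) and 22743 and 33965 (hypoxia) in KO. WT hypoxia lay above WT normoxia, and KO normoxia below WT normoxia, without overlap. KO hypoxia overlapped with KO normoxia and with WT hypoxia, and number 2 of both hypoxia groups was higher than every other library. Gm22744, from the same host, was far more even, at 28384 and 25536, 28373 and 28704, 27492 and 24681, and 26012 and 27843 in the order WT normoxia, WT hypoxia, KO normoxia, KO hypoxia. Its coefficient of variation over the 8 libraries was 5.58%, against 16.4% for Gm24452.

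Among the other abundant features a single library stood low. Snord80 was at 26998 and 24188 (normoxia) and 27483 and 31267 (hypoxia) in WT, and at 23070 and 12509 (normoxia) and 19479 and 26644 (hypoxia) in KO. Snord47 was at 26265 and 22414, 22497 and 23921, 22290 and 15835, and 21080 and 22516. Both lie in Gas5, and in both KO normoxia number 2 was the lowest of the 8 libraries. The same library was lowest for Snord83b, Snord68, the unmatched FR145688 and both abundant Zfas1 features, Gm25878 and Gm23201.

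Snord83b, in Rpl3, was at 26562 and 22792 (normoxia) and 26227 and 20711 (hypoxia) in WT, and at 23968 and 15157 (normoxia) and 24192 and 21665 (hypoxia) in KO, in its longer feature. Snord68, in the ribosomal protein gene Rpl13, was more even, at 20184, 18805, 23977 and 21372 in WT and 20272, 16145, 17930 and 21559 in KO. A run of 4 values for a genotype gives both normoxia libraries and then both hypoxia libraries. Their groups overlapped in every comparison of genotype or oxygen except WT hypoxia against WT normoxia for Snord68. Of the Zfas1 features, Gm23201 was the more variable (coefficient of variation 26.4%), at 20818, 12791, 18947 and 13476 in WT and 14864, 8234, 13937 and 13689 in KO, with number 1 above number 2 in each group. Gm25878 kept the same order of numbers, at 18246, 15561, 18971 and 16760 in WT and 15133, 10136, 18843 and 14425 in KO.

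**Figure D1:**
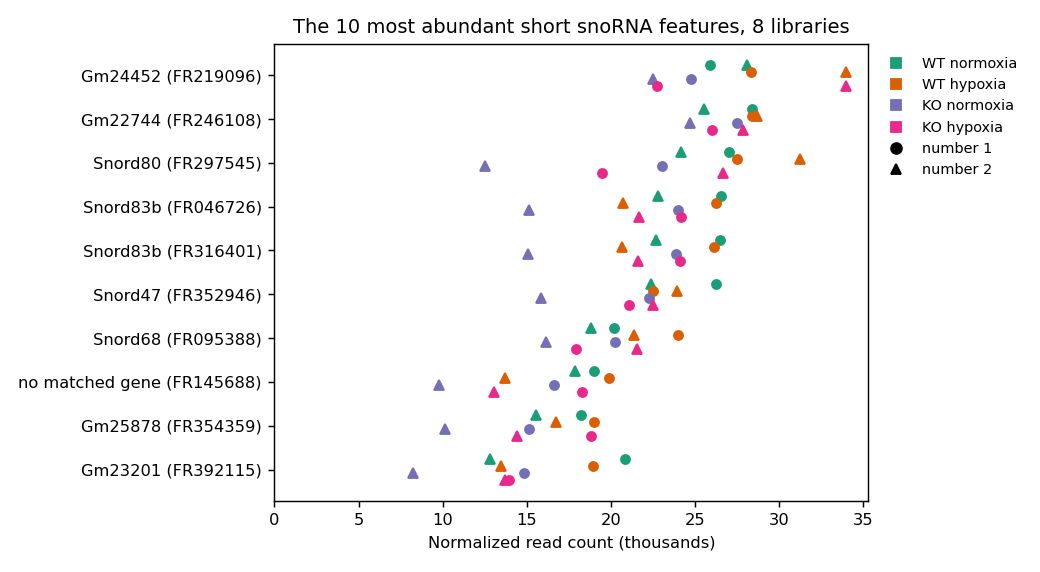
Normalized read count (in units of 1000, linear axis) of the 10 most abundant short snoRNA features in the 8 libraries. Colours give the group and shapes the library number; KO normoxia number 2 (purple triangle) is the lowest point of every feature in the plot.

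Most of these RNAs lay inside annotated host genes: 157 features at 129 loci fell in 70 host genes on the same strand. Ribosomal protein genes made up 18 of the hosts, with 43 features at 36 loci. RNAs of the same host differed widely in read count when set per 100 bases of interval. Where reads lay within an interval, and whether they came from whole RNAs or from pieces, is not given by these counts. The 8 loci of Gas5, a non-coding transcript whose exons are known for rapid decay, ran from 1311 for Snord78 to 34003 for Snord47, a 25.9-fold range. The 7 loci of Snhg1 ran from 2045 to 41736 (20.4-fold), and the 3 of Rps12 spanned 70.8-fold, with Snora33, a piece of an H/ACA RNA, as the lowest at 183. The 4 of Rpl13a stayed within 2.34-fold and the 3 of Zfas1 within 1.35-fold. By read count per 100 bases, members of 1 host were thus very unequal in Gas5 and Snhg1 and close to each other in Zfas1.

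Snord100, in Rps12, showed how overlapping features carry different counts. The longer Snord100 feature was at 12326 and 9964 in WT normoxia and the shorter one at 8621 and 6978. At 30 loci the table listed a second, overlapping feature, fully nested at 29. The inner feature held at least 99% of the outer one's value in every library at 7 loci (Snord83b, Snord92, Snord69, Snord45b, Snord99, Snord42b and Snord19), so both features carried nearly the same values. At 7 others its mean share was under 50%, among them Scarna9 (15.2%, from 8.30% to 18.8%), Snord91a (17.5%), Snord88a (35.2%) and Snord72 (40.2%, from 32.1% to 44.8%). Snord68, whose gene is widely used as a qPCR reference, held 64.3% (60.2% to 67.9%). Shares differed far more between loci than between the libraries of a locus.

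**Figure D2:**
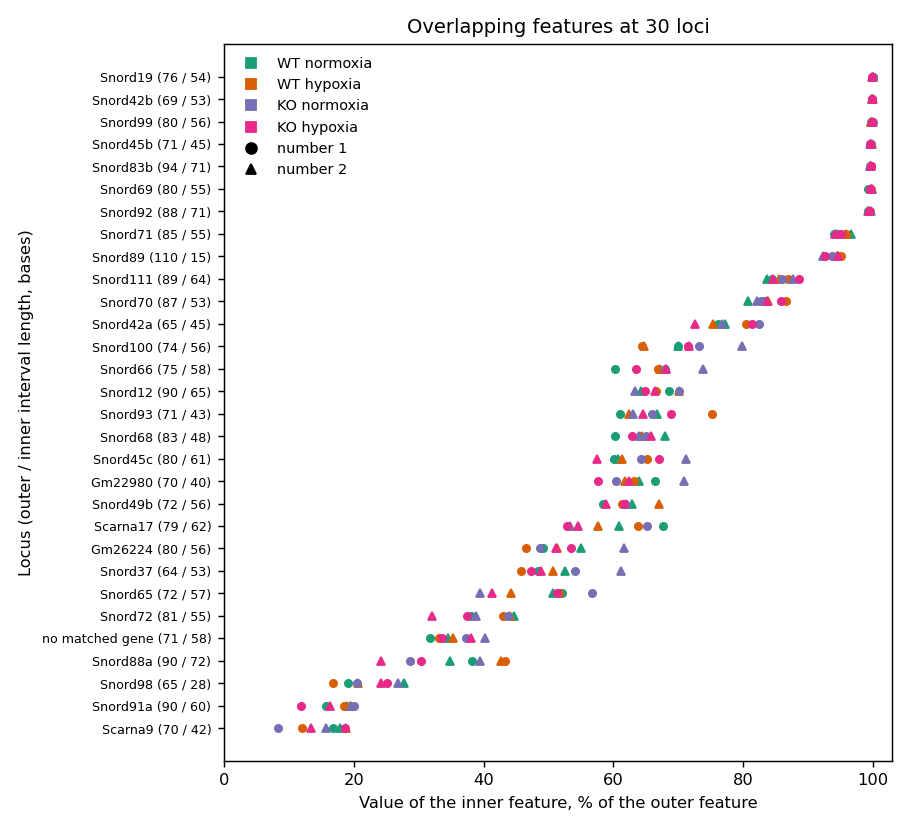
Value of the shorter feature as a percentage of the overlapping longer feature (linear axis) at 30 loci, 1 point per library, with interval lengths in bases. Loci at the top sit at 99% or more in all 8 libraries; Scarna9 at the bottom lies between 8.30% and 18.8%.

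Together the 174 features held 5.81% to 8.66% of a library. In WT the share was 8.32% and 6.50% under normoxia (7.41% ± 1.29, SD, n = 2) and 8.32% and 6.42% under hypoxia (7.37% ± 1.34). In KO it was 8.66% and 5.81% under normoxia (7.24% ± 2.02) and 7.39% and 6.57% under hypoxia (6.98% ± 0.580). In every group the share was higher in number 1 than in number 2, and the groups overlapped. Library totals were larger in number 2 of every group. In KO hypoxia the summed values of the 174 features ran the other way, at 713091 (number 1) and 731624 (number 2). In the other groups number 1 also had the higher sum. As a share of the library total, a lower value cannot be told apart from more of other small RNAs, and fewer cells of a type cannot be told apart from less RNA per cell. The longer snoRNAs held 0.875% to 1.28% and small nuclear RNAs 0.533% to 1.09%, and both were also higher in number 1 of every group. KO normoxia number 2 was the lowest of the 8 libraries for 70 of the 174 features and KO hypoxia number 1 for 44. In KO hypoxia number 1 ribosomal RNA features took 5.76% of the library, against 1.69% to 2.88% in the others; the part of this in the results was not tested.

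**Figure D3:**
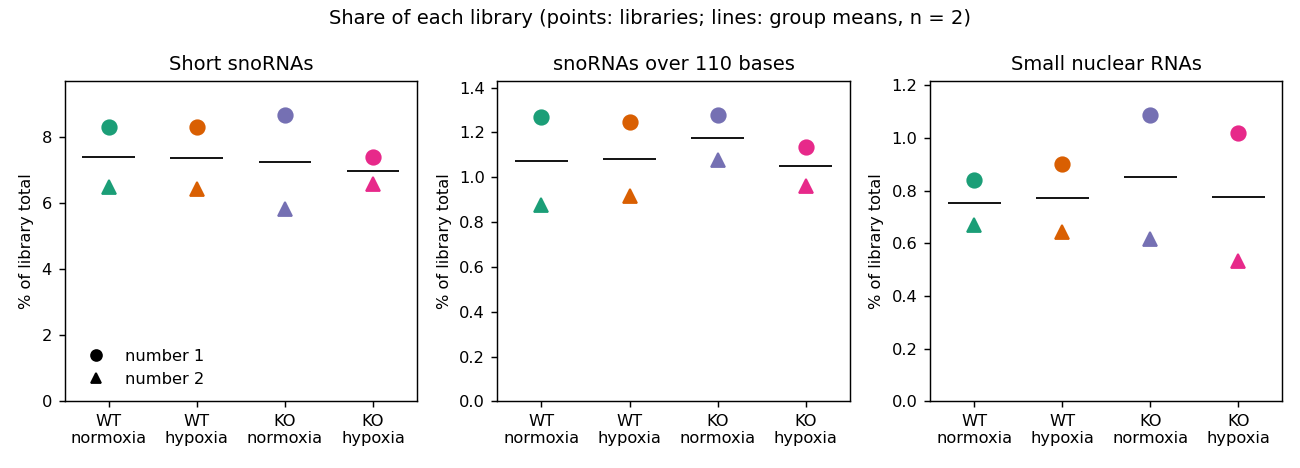
Share of each library's total (percent, linear axes from 0) held by short snoRNAs, by snoRNAs over 110 bases and by small nuclear RNAs, with points for libraries and lines for group means (n = 2). Number 1 lies above number 2 in every group, and the short snoRNAs lie between 5.81% and 8.66%.

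The short snoRNAs had a smaller median spread between libraries than the other classes of small RNA compared here. The median SD of log2(value + 1) over the 8 libraries was 0.25 for them, 0.34 for longer snoRNAs, 0.36 for genomic transfer RNAs and 0.50 for microRNAs. Among features with a mean of at least 1000 it was 0.24 (112 features), against 0.26 for 17 longer snoRNAs, 0.42 for 152 microRNAs and 0.33 for all 472 such features. At that level the longer snoRNAs were thus close to the short ones. Short snoRNAs were 15.2% of the 1029 features with a mean of at least 100, and 25 of the 50 with the smallest SD, at 24 loci. This is a description of these 8 libraries, with no test. The libraries of a group correlated over the log2 values of the 174 features with r from 0.986 to 0.988, and their median absolute difference on the log2 scale was 0.24 to 0.36.

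Snord104 had the smallest spread of the 1540 features tested. It was at 7300 and 7229 (normoxia) and 7921 and 7962 (hypoxia) in WT, and at 7986 and 7398 (normoxia) and 7265 and 7390 (hypoxia) in KO, a coefficient of variation of 4.45%. The longer Snord42b feature came close, at 5043 and 4920, 5306 and 5266, 4691 and 5087, and 5393 and 5176 (4.46%). Its hypoxia libraries all lay above its normoxia libraries. The 8 genes of the list of common qPCR references found here gave coefficients of variation of 12.1% to 27.1% over 12 features. Snord104 and Snord42b were picked for the lowest SD among the short snoRNAs, which include these 12. Their lower values beside the 12 follow from that choice.

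The opposite case was Gm23969 in Rpl7a, with an SD of 1.00 on the log2 scale. It was at 812 and 3798 (normoxia) and 662 and 2281 (hypoxia) in WT, and at 658 and 847 (normoxia) and 779 and 517 (hypoxia) in KO. It was high in number 2 of both WT groups and in no other library. The other Rpl7a snoRNA features did not share this: Gm24134, for example, was at 1898 and 1944 in WT normoxia and 2153 and 1891 in WT hypoxia. The unmatched FR063396 had an SD of 0.58, with 783 and 1236, 813 and 512, 766 and 504, and 450 and 354.

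**Figure D4:**
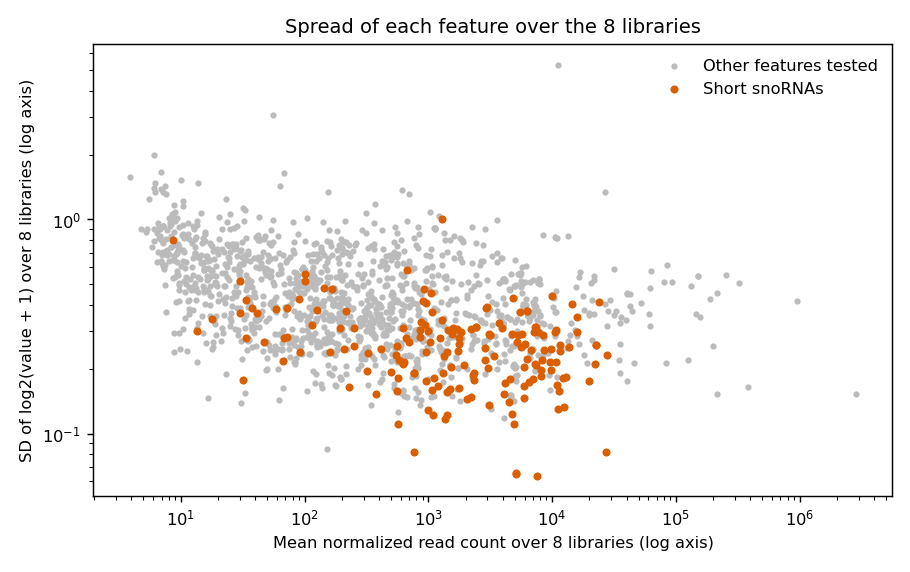
SD of log2(value + 1) over the 8 libraries against the mean normalized read count, both on log axes, for the 174 short snoRNA features (orange) and the other features tested (grey). Most orange points lie low for their level; Gm23969 is the orange point at an SD of 1.00.

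Hypoxia was compared with normoxia within each genotype by limma over all 1540 features tested. In WT no short snoRNA passed an adjusted p of 0.05, and 0 of 174 had an unadjusted p under 0.05 (all features: 0% called, 20 under 0.05, 1.3%). The smallest adjusted p of any feature by limma was 0.235. So miR-210-3p, at 4786 and 8676 in WT normoxia and 36738 and 39011 in WT hypoxia, was not called either. A count of 0 here does not show that nothing changed. The median log2 difference of the short snoRNAs in WT was 0.04, with 100 features higher and 74 lower, beside 0.02 over all features. That median was -0.02 without WT hypoxia number 1, -0.03 without WT normoxia number 2 and -0.03 when libraries were scaled to their microRNA totals, while within numbers it was 0.03 in both. With the replicate number as a block limma called 8 of all features, and 0 short snoRNAs. In KO again 0 passed, and 0 had an unadjusted p under 0.05 (all features: 0% called, 83 under 0.05, 5.39%), with a median of 0.04 beside 0.02. The KO median was -0.10 without KO normoxia number 2, 0.13 without KO normoxia number 1, 0.01 without KO hypoxia number 2 and -0.10 on the microRNA total. Within numbers it was -0.08 (number 1) and 0.15 (number 2). The 95% interval of the difference lay within a 2-fold change either way for 148 of 174 features in WT (85.1%, all features 45.3%) and for 136 in KO (78.2%, all features 35.6%). For those features a 2-fold difference lies outside the interval.

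The features with the smallest p in WT were Snord100 and Snord21, from the ribosomal protein genes Rps12 and Rpl5. The shorter Snord100 feature was at 8621 and 6978 in WT normoxia and 6219 and 4739 in WT hypoxia, without overlap, and at 6924, 6828, 6609 and 7380 in the 4 KO libraries. Its log2 difference in WT was -0.51 (SE 0.26, adjusted p = 1). Snord21 was at 7656 and 4886 in WT normoxia and 9256 and 8714 in WT hypoxia (log2 difference 0.55, SE 0.30, adjusted p = 1), and in KO at 7816 and 7704 in normoxia and 5580 and 7450 in hypoxia. In KO the smallest p belonged to Gm25091, in Rpl21, at 2019 and 2413 in normoxia and 1651 and 1229 in hypoxia (log2 difference -0.63, SE 0.28, adjusted p = 0.804). Snord19, in Gnl3, was at 2135 and 3448 and at 1581 and 2314 in its longer feature, which overlap.

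Over both genotypes, 4 features at 3 loci were higher in all 4 hypoxia libraries than in all 4 normoxia libraries, which is 2.30% of the 174 beside 0.519% of all features, and none was lower in all 4 (all features 0.714%). They were both Snord42b features, Snord67 and Gm23389. Snord67, a guide for methylation of the U6 spliceosomal RNA, was at 410 and 558 in WT normoxia, 563 and 536 in KO normoxia, 632 and 684 in WT hypoxia and 620 and 596 in KO hypoxia. Its mean log2 difference was 0.30 (SE 0.19, adjusted p = 0.975). Gm23389, for which no host was found, was at 66, 59, 56 and 60 in normoxia and 84, 73, 87 and 94 in hypoxia (log2 difference 0.48, SE 0.22, adjusted p = 0.975). In the mean hypoxia effect 0 of 174 passed and 1 had an unadjusted p under 0.05, the unmatched FR063396 (log2 difference -0.62, SE 0.26), beside 0% called and 3.57% under 0.05 over all features.

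KO was compared with WT within each oxygen level. The cells of each genotype came from different mice and were immortalized. A KO minus WT difference therefore cannot be told apart from a difference between these cell populations. In normoxia 0 of 174 passed and 0 had an unadjusted p under 0.05 (all features: 0.0649% called, 13.4% under 0.05). The median log2 difference was -0.17 beside -0.06 over all features, with 42 features higher and 132 lower. It was -0.04 without KO normoxia number 2 and -0.27 without KO normoxia number 1. In hypoxia 0 passed and 3 had an unadjusted p under 0.05 (all features: 0.13% called, 9.03% under 0.05), with a median of -0.13 beside -0.04 and 38 higher against 136 lower. When the libraries were scaled to their microRNA totals these medians became 0.07 and 0.02, with 107 higher and 67 lower in normoxia and 94 against 80 in hypoxia, so the direction against WT turned with the scaling. That scaling moved the median of all features to 0.17 and 0.11 and left the gap between the short snoRNAs and all features nearly as it was by construction. That gap was -0.10 in normoxia and -0.09 in hypoxia. It became -0.25 without KO normoxia number 1 and -0.05 without KO normoxia number 2 in the former, and -0.19 without KO hypoxia number 2 and -0.17 without WT hypoxia number 2 in the latter. Within numbers the medians were -0.10 (number 1) and -0.23 (number 2) in normoxia and -0.17 and -0.10 in hypoxia. With TMM factors the split was 59 higher and 115 lower in normoxia and 54 against 120 in hypoxia.

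**Figure D5:**
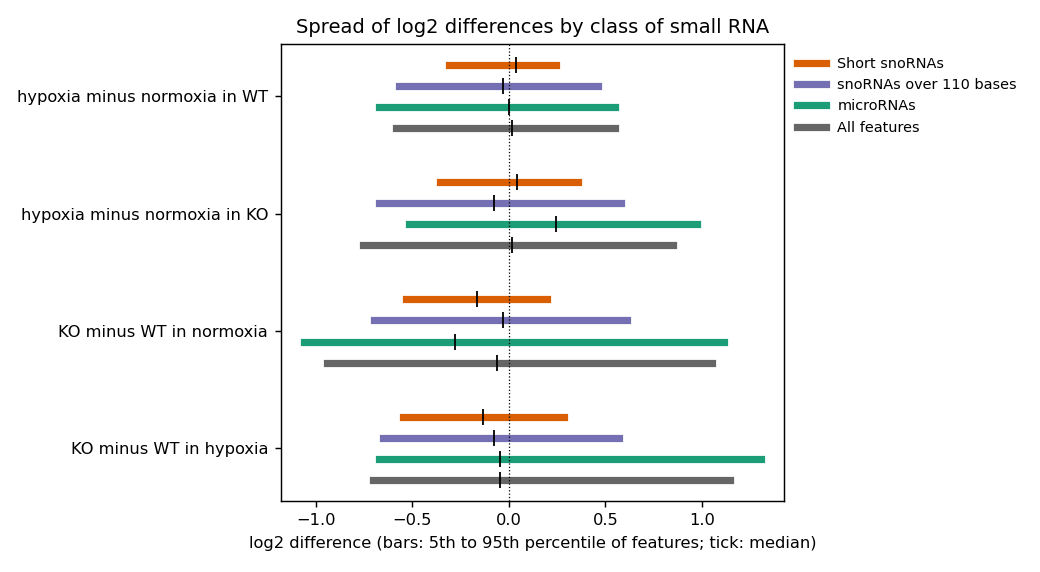
Spread of log2 differences in 4 comparisons for short snoRNAs, longer snoRNAs, microRNAs and all features tested (bars from the 5th to the 95th percentile of features, ticks at medians). The short snoRNA bars are the narrowest of the 4 in each comparison, and their median lies at -0.17 and -0.13 for KO against WT.

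In normoxia the smallest p of the short snoRNAs for genotype was that of Gm24493, at 178 and 161 in WT and 307 and 237 in KO. Snord72, from an intron of Rpl37, had the smallest p for genotype in hypoxia and over both oxygen levels. Its shorter feature, the part in capitals above, was at 2956 and 3589 (normoxia) and 3445 and 4164 (hypoxia) in WT, and at 2768 and 2157 (normoxia) and 1918 and 2380 (hypoxia) in KO. All 4 KO libraries lay below all 4 WT libraries. The log2 difference was -0.83 in hypoxia (SE 0.28, adjusted p = 0.493) and -0.62 over both oxygen levels (SE 0.20, adjusted p = 0.147). The longer feature was at 7764, 8019, 8023 and 9452 in WT and 6329, 5556, 5131 and 7408 in KO, also without overlap, with a smaller difference (-0.46, SE 0.19, adjusted p = 0.256).

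Scarna17, a Cajal body RNA of the C/D class, was at 219 and 192 (normoxia) and 196 and 217 (hypoxia) in WT, and at 129 and 122 (normoxia) and 87 and 176 (hypoxia) in KO in its longer feature. The KO libraries lay below the WT libraries in both of its features, with log2 differences over both oxygen levels of -0.72 (SE 0.25, adjusted p = 0.183) for the longer and -0.86 (SE 0.28, adjusted p = 0.147) for the shorter one. Snord88a showed the same order in its shorter feature, at 129, 80, 127 and 109 in WT and 73, 73, 69 and 59 in KO (-0.67, SE 0.24, adjusted p = 0.188). Its longer feature overlapped between the genotypes, at 338, 230, 293 and 255 in WT and 254, 185, 227 and 244 in KO. Snora30, an H/ACA RNA in Srcap, was at 39, 40, 40 and 56 in WT and 38, 32, 21 and 34 in KO.

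In the mean genotype effect 0 of 174 passed and 10 had an unadjusted p under 0.05, 9 lower and 1 higher in KO (all features: 0.13% called, 17.8% under 0.05). The share of 10 in 174 was below that over all features. In all, 12 features at 9 loci (6.90%) were lower in every KO library than in every WT library, beside 3.51% of all features, and 1 (0.575%) was higher in every KO library, beside 8.38%. The 9 loci were Gm22489 in Gas5, Snord72, Gm22858 in Wdr43, Rnu73b in Rps3a1, Gm24134 in Rpl7a, Snord111, Scarna17, Snord88a and Snora30; of these Gm22489, Gm22858, Rnu73b, Gm24134 and Snord111 are named because of their values. Gm22489 was at 13266, 12564, 13294 and 13518 in WT and 9886, 8999, 11490 and 9364 in KO (log2 difference -0.41, SE 0.18, adjusted p = 0.256). The 1 higher feature was Gm24493, at 178, 161, 182 and 161 in WT and 307, 237, 200 and 297 in KO (0.59, SE 0.22, adjusted p = 0.210).

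Whether the hypoxia difference itself varied with genotype was tested as an interaction. None of the 174 passed, and 0 had an unadjusted p under 0.05 (all features: 0% called, 2.4% under 0.05). Snord21 had the smallest p, with a log2 difference of -0.82 between its changes in KO and WT (SE 0.42, adjusted p = 1.00). The 95% interval of the interaction lay within 2-fold for 40 of the 174 features (23.0%), so the design was much less precise here than for the pairwise differences.

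By host and role, no list held a feature past the threshold (limma, 0 called in each), and in the 4 pairwise comparisons the one listed by name with an unadjusted p under 0.05 was Snord72 in hypoxia. Of the 10 Gas5 RNAs listed by name, 3 were found (Snord47, Snord78 and Snord80), and of the 8 of Snhg1 none. By annotated position Gas5 held 9 features at 8 loci, and all 9 had a lower mean in KO normoxia than in WT normoxia (median -0.30) and 8 of 9 in hypoxia (median -0.17). Over the 174 short snoRNAs the medians were -0.17 and -0.13, with 132 and 136 features lower. The 7 Snhg1 features stayed nearer 0, with medians of -0.03 and -0.06. The 4 Rpl13a RNAs, Snord32a, Snord33, Snord34 and Snord35a, had medians of -0.16 and -0.10. The 9 features of Nop56, Nop58 and Ncl, hosts that encode C/D core proteins and nucleolin, had medians of -0.23 and 0.01, and the 43 in ribosomal protein genes -0.16 and -0.12. Within numbers the Gas5 median was -0.23 (number 1) and -0.44 (number 2) in normoxia and -0.18 and -0.09 in hypoxia. The list of other ribosomal protein and translation factor introns was found for 16 of 36 names (21 features), with medians of -0.12 in normoxia and -0.03 in hypoxia for KO against WT. In the comparison of hypoxia with normoxia the Gas5 median was -0.06 in WT and 0.19 in KO, and that of the ribosomal protein hosts 0.04 and 0.06.

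In Rpl13a, whose snoRNAs have been linked to lipotoxic stress, Snord32a was at 9464, 7199, 10060 and 7532 in WT and 9098, 6746, 7015 and 8775 in KO. Snord34 was at 7019, 4885, 6665 and 5196 in WT and 6961, 3932, 5943 and 5302 in KO. In WT and in KO normoxia number 1 was the higher library for both RNAs, and the genotypes overlapped. Snord82, in the nucleolin gene Ncl, was at 13265, 9472, 14047 and 9941 in WT and 10345, 7888, 8145 and 10864 in KO. Of the 6 names listed for Nop56 and Ncl, 3 were found, Snord82, Snord110 and Snord57, with a median KO minus WT difference of -0.35 in normoxia and -0.27 in hypoxia.

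The snoRNAs often used as qPCR references were found for 8 of 10 names (12 features at 8 loci). For KO against WT all 12 had a lower mean in normoxia (median log2 difference -0.19) and 9 of 12 in hypoxia (median -0.10), beside -0.06 and -0.04 over all features. Over the 174 short snoRNAs, from which the list is drawn, these medians were -0.17 and -0.13, with 132 and 136 features lower. For hypoxia against normoxia the medians of the 12 were 0.08 in WT and 0.12 in KO. In both genotypes the median was 0.02 over all features and 0.04 over the short snoRNAs. Within numbers the KO minus WT median of these 12 was 0.03 (number 1) and -0.46 (number 2) in normoxia and -0.07 and -0.11 in hypoxia. Snord47 and Snord68 were the most abundant of them, and Snord72 had the largest genotype difference.

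Of the 6 listed guides of U6 methylation, Snord67, Snord8 and Snord7 were found. Snord8 was at 274 and 445 (normoxia) and 291 and 374 (hypoxia) in WT, and at 293 and 343 (normoxia) and 284 and 317 (hypoxia) in KO. Snord7 was at 73 and 68, 61 and 46, 98 and 61, and 105 and 61. Per 100 bases their mean read counts were 587 (Snord67), 298 (Snord8) and 73.8 (Snord7), well below Snord47 at 34003. Their median difference was -0.08 for hypoxia in WT, 0.05 for hypoxia in KO, and 0.13 and -0.11 for KO against WT in normoxia and hypoxia. No feature matched the names listed for the Snrpn domain or for the snoRNAs of rRNA processing and acetylation, and that only says that no matched name was among those listed.

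Snord8 and Snord89 lay just inside the length limit at 110 bases, with means of 328 and 696. Snord90 and a longer Snord67 feature lay just outside at 111 bases, with means of 586 and 575; the latter differed from the Snord67 values above by at most 1 in any library. At the level limit ENSMUST00000180087 (mean 8.63) and the Snora5c feature (13.6) lay inside, and FR041482 (6.00) and FR130347 (6.75) outside. Across the 144 loci, which share the same 8 libraries, length and GC content had a Pearson r of -0.28 and -0.22 with the log2 mean level (Spearman -0.23 and -0.20), and of 0.03 and 0.06 with the mean genotype difference (Spearman 0.02 and 0.07). The log2 mean level had an r of -0.26 with the mean genotype difference (Spearman -0.28) and 0.29 with the mean hypoxia difference (Spearman 0.36), and GC content had -0.16 with the latter (Spearman -0.18). Level and difference come from the same values, and all of these are descriptions of the set.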

How the data were processed

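Small RNA was measured in 8 libraries. Per the labels' protocols, extraction used a miRNeasy kit and library preparation the NEBNext small RNA kit for SOLiD. The values are a score that the authors deposited: per the labels a normalized read count, rounded to whole numbers. The aligner, the genome build, the handling of multi-mapping reads and the way values were normalized were not given in the sources used here.

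Features with at least 10 in at least 2 of 8 libraries (1540 of 2403) were tested with limma 3.58.1 in R 4.3.3, with an intensity trend, on log2(value + 1) and 4 group means (4 residual and 5.64 prior degrees of freedom). Fold changes are on that log2 scale, with a pseudocount of 1, which understates changes of low features. The Benjamini-Hochberg adjustment ran over the 1540 features, with a threshold of 0.05. The fit was tested on simulated data. Deposited sequences were matched to GENCODE M21 transcripts of GRCm38 (a shared run of at least 30 bases that covers at least 60% of the shorter sequence), and a host is a gene on the same strand that contains the match. Counts were summed with Python 3.11.15.

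The members and lists were chosen with earlier results of these data known, and grouping by host gene was chosen after many matches proved to carry Gm names. Named were the 10 most abundant features, the 5 with the smallest p in each pairwise contrast and the 3 in the others (no feature passed), the 3 with the lowest and the 3 with the highest SD among means of at least 100, up to 3 of each list, and the features nearest the limits. Lists were snoRNAs of Gas5, Snhg1, Rpl13a, other ribosomal protein and translation genes, the Snrpn domain, Nop56 and Ncl, U6 guides, rRNA processing or acetylation, and qPCR references. Alternatives were other pseudocounts, filters, scalings, no trend, the replicate number as a block, fewer groups, each library left out, 1 feature per locus and Snord names only. The last 2 were chosen after seeing the data.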

Additional observations from a re-analysis of the deposited data

How the results depend on the processing

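The count of short snoRNAs past the adjusted threshold was 0 in each of the 144 alternative counts (7 contrasts), and none of the 541 alternative values of named features passed it. The counts for 1 feature per locus and for Snord names are parts of the main fit, so they had to be 0. The smallest adjusted p of a named feature over these alternatives was 0.0611, for the shorter Snord72 feature in the mean genotype effect with the replicate number as a block. Scaling to the microRNA total moved the median KO minus WT difference from -0.17 to 0.0699 in normoxia and from -0.16 to 0.0385 over both oxygen levels; the median over all features moved from -0.06 to 0.17 and from -0.06 to 0.13 with them by construction. The gap between the short snoRNAs and all features, -0.10 in both, ranged with 1 library left out from -0.252 to -0.049 in normoxia and from -0.147 to -0.063 for mean genotype, and from -0.187 to -0.0903 in hypoxia. Leaving out 1 library at a time gave medians of -0.0315 to 0.0814 for hypoxia in WT, -0.0984 to 0.13 for hypoxia in KO, -0.266 to -0.0431 for KO minus WT in normoxia, -0.196 to -0.102 for KO minus WT in hypoxia, -0.0959 to 0.112 for the interaction, -0.0476 to 0.08 for mean hypoxia and -0.187 to -0.106 for mean genotype. The share of features with both boxes was 39.1%, and 65.5% with 1 mismatch in the C box. With microRNAs left out of the total, the summed shares were 39.3% and 33.7% (normoxia) and 38.8% and 35.8% (hypoxia) in WT, and 35.1% and 25.0% (normoxia) and 27.4% and 33.1% (hypoxia) in KO. The cause of these moves was not tested, other than the change of the denominator and of the motif by construction.

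The labels do not say that number 1 or 2 marks a shared batch, and only 2 numbers exist, so they were not treated as pairs. Deviations by number correlated between groups with r of 0.15 to 0.55 over all features and 0.04 to 0.61 over the short snoRNAs. With the replicate block 0 short snoRNAs passed in any contrast, and 6 (KO minus WT in normoxia), 8 (in hypoxia) and 17 (mean genotype) had an unadjusted p under 0.05 by limma. Over all features the block called 8 in place of 0 for hypoxia in WT, 3 in place of 0 for mean hypoxia and 91 in place of 2 for the mean genotype effect. For the last, TMM factors called 16, the microRNA total 85 and the fit without WT hypoxia number 2 called 29. With 2 libraries a group, differences well under 2-fold were mostly not detectable, and most larger ones were not called either. For KO minus WT in normoxia 146 of all features differed by more than 2-fold, and limma called 1. For KO minus WT in hypoxia 130 did and 2 were called, and for hypoxia in WT 47 did and 0 were called.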
